A study of Mus musculus with 31 samples.

Results

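Hmces, which the study calls Srap1, with gene ID 232210, is the gene named in the knockout (KO) label of these mouse embryonic stem (ES) cells. Its locus was followed through the RNA tables and the control IgG libraries. The locus was taken as chromosome 6, 87863900 to 87886700 (mm9), a span of 22801 bases chosen by the read coverage of the IgG DIP library over this gene. The read stacks therefore describe the choice, and no test was made on them. In the span lay 15 of 143073 RNA loci of the table labelled Srap1 KO, and 3 of 8882, 2 of 9218, 5 of 9295 and 1 of 9214 loci of wild-type (WT) libraries 1 to 4. It also held 6 read blocks of the IgG DIP library and 0 windows of the IgG ChIP list.

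The series holds 31 samples. ES cells labelled Srap1 KO and the WT ES cells derived alongside them, both of 129SVxC57/BL6 background, grew in serum with leukemia inhibitory factor, 2i inhibitors and ascorbic acid. Total RNA was depleted of ribosomal RNA. IgG DIP is a control precipitation of purified, sonicated DNA labelled Srap1 KO with a nonspecific antibody, and IgG ChIP is the same control on crosslinked lysate. Cells for the IgG libraries were at passages 3 to 5. Per the labels' protocol, ChIP was done on ES cells stably expressing FHA-tagged Srap1, and the label of the IgG ChIP library gives no genotype of its own. The labels do not say how the Srap1 allele was altered or which bases it lacks. The KO label could not be checked from these files, since the altered bases are not known. The table that carries the label lists RNA along the whole gene, but a locus includes introns and does not show which exons its RNA holds. KO therefore stands for the label throughout. The sources used here also give no exon positions for the gene, so the read blocks are given by position and not as exons, and coding and untranslated bases were not told apart.

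HMCES, the protein made from Hmces, carries a SRAP domain, a fold shared from bacteria to mammals. Its name records that it was found as a protein of ES cells that binds 5-hydroxymethylcytosine in DNA. In human cells the SRAP domain is known to form a covalent bond with abasic sites in single-stranded DNA and so to shield them during replication. Tet enzymes oxidise 5-methylcytosine, and the title of the series places the Srap1 nuclease in the removal of the oxidised bases.

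The start of the gene is shown because it is where full-length Hmces RNA begins. RefSeq gives the promoter window on build GRCm38.p6, plus strand, at chr6:87913726-87914025, from 250 bases before to 50 bases after the annotated start. The 30 bases just before the start, at chr6:87913946-87913975, are printed with CG dinucleotides in capitals.

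Hmces, 30 bases before the start: ggagCGggaCGggCGtctcttaggCGgaCG

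The whole window of 300 bases held 22 CG dinucleotides and 64.3% G or C. The median over 32851 RefSeq promoters of this length was 7 CG dinucleotides, and 76.9% of them held fewer than the Hmces window. The letters TATAAA did not occur in it on either strand, while 13.6% of all the windows held them. Gene ends of GRCm38.p6 on both sides of Hmces were matched with ends of RNA loci at shifts in steps of 100 bases. A shift of 50000 bases matched 39 of 360 ends within 100 bases. No shift more than 300 bases away from it matched more than 11. At this shift the first RNA locus began 37 bases after the annotated start of the promoter window in the KO-labelled table. It began 2, 31 and 35 bases before that start in WT libraries 2, 3 and 4. WT library 1 had no locus over the start of the gene, and its first locus began 7415 bases downstream. The RefSeq gene record begins further upstream. Counted from the record, the first locus began 106 bases inside the gene in the KO-labelled table, and 67, 38 and 34 bases inside it in WT libraries 2, 3 and 4. Whether RNA begins before the gene therefore depends on the start used. The promoter window held 2 IgG DIP reads.

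The tables that describe these cells differ in depth. The table labelled Srap1 KO R2 held the same 143073 values as the first KO-labelled table, and the 2 were counted as 1 sample. The WT tables differed from each other, at loci of like ends, by a scaled median of 0.742 to 1.12 standard errors of their deposited bounds over 6 pairs. Only 76 to 94 loci per pair had both ends within 5 bases and entered this value. At those loci it is about what counting noise gives, which does not show that the libraries come from 1 sample. The labels name no separate cultures, so the WT tables were counted as 1 sample too, as the cautious choice. Their values are given one by one and no p-value is given for any difference. The IgG DIP library held 9127504 reads, of which 7236151 had a mapping quality of at least 30. Levels of ES cell markers, Tet genes and repair genes were not analysed here, because the tables pair no locus with a gene.

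RNA over Hmces was listed in the library labelled Srap1 KO at 36.3 FPKM, averaged over the listed loci of the span. That was above 3 of the WT libraries, at 26.4 to 28.4 FPKM, and below WT library 2, at 46.9 FPKM. Levels are in FPKM, which counts fragments for each kilobase of RNA relative to the size of the library, with the lower and upper bounds the authors deposited. In the KO-labelled table a single locus ran from 87864013 to 87886638, over 22625 bases, at 35.3 FPKM (32.8 to 37.8). In WT library 4 a locus of 22673 bases ran from 87863941 to 87886614 at 28.4 FPKM (21.6 to 35.1). The KO locus therefore began 72 bases inside the WT one and ended 24 bases beyond it, and the bounds of the 2 levels overlapped. Both loci followed the gene from end to end. A locus includes its introns, so these ends do not show which exons the RNA holds. In bulk RNA, fewer cells with a transcript and less of it per cell cannot be told apart.

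The other WT tables listed Hmces in pieces. WT library 1 had 1 main locus, from 87871391 to 87886614, at 27.8 FPKM (19.8 to 35.8). WT library 2 had a locus from 87863974 to 87867938 at 76.5 FPKM (44.8 to 108) and one from 87871522 to 87886585 at 39.2 FPKM (29.0 to 49.3). WT library 3 had a locus from 87863945 to 87867977 at 49.8 FPKM (29.0 to 70.7) and one from 87871408 to 87886619 at 26.0 FPKM (17.8 to 34.1). In both tables the piece at the start of the gene had the higher level, and in both its bounds overlapped those of the other piece. The stretch from about 4 to 7.5 kb into the span was covered by no locus in WT libraries 1 to 3. Loci covered 99.2% of the span in the KO-labelled table, and 66.8%, 83.5%, 84.4% and 99.4% of it in WT libraries 1 to 4.

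**Figure D1:**
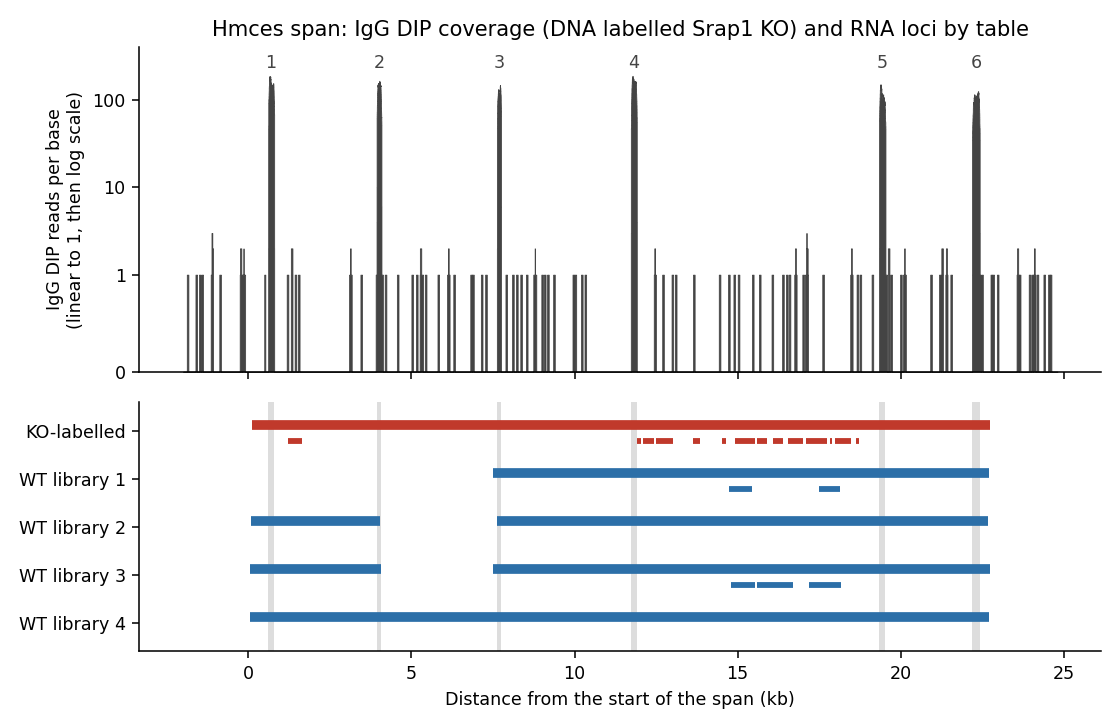
The upper panel plots IgG DIP reads per base along the Hmces span (reads with a mapping quality of at least 30; linear to 1, then a log scale), with the 6 read blocks numbered. The lower panel draws each RNA locus by table, KO above the 4 WT tables, with loci inside the widest locus as thinner bars and the read blocks in grey; all 6 blocks lie within a locus in the KO-labelled table and in WT library 4.

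The bounds of the loci imply how many fragments stood behind them, taking each bound to lie 2 SD of a Poisson count from the level. The whole-gene locus rested on about 801 fragments in the KO-labelled table and 70.2 in WT library 4. The loci of the span together rested on about 1333 fragments in the KO-labelled table, and on 69.3, 83.0, 101 and 70.2 in WT libraries 1 to 4. The KO value is thus the more precise one. WT library 4, with about as many fragments as library 1, still listed the gene whole. The part of depth in the broken loci was not tested.

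To set 1 level per table beside the others, FPKM was averaged over the loci of the span, weighted by the bases each shares with it. Bases under no locus were left out, and inner loci counted beside the locus around them. Loci covered 99.2% of the span in the KO-labelled table and 83.5% in WT library 2. The levels of the tables are thus not over the same bases. The level was 36.3 FPKM in the KO-labelled table. It was 26.4, 46.9, 28.0 and 28.4 FPKM in WT libraries 1 to 4, with a mean of 32.4 FPKM over these tables. The KO level lay inside the range of the WT tables only through library 2, and above the other 3. On the scale of log2(FPKM + 1), the KO level minus the mean WT level was 0.20. Without WT library 2 it was 0.38. The other 3 WT libraries spanned 0.10 among themselves, and the KO level lay 0.34 above the highest of them. These 2 values depend on the weighting. Inner loci, at 5.75 to 11.4 FPKM in the WT tables, entered the levels of WT libraries 1 and 3 but not of 2 and 4. WT library 1 also had no locus over the start of the gene, where WT libraries 2 and 3 had their higher piece. The gap by main loci alone was not computed. The WT tables were counted as 1 sample, so whether the labelled genotypes differ in Hmces RNA cannot be told from them. The log2 difference was 4.91 when FPKM was summed over the loci, since the sum is led by loci under 150 bases.

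Within its own table, the widest Hmces locus stood higher in the KO-labelled table than in the WT tables. It exceeded 90.7% of all loci in the KO-labelled table, and 76.8%, 87.3%, 75.0% and 78.5% of loci in WT libraries 1 to 4. Among loci of at least 10 kb it exceeded 88.4% of 5427 in the KO-labelled table and 63.8%, 83.1%, 61.8% and 67.9% of 1579 to 1666 in WT libraries 1 to 4. The median level of loci of at least 10 kb was 12.5 FPKM in the KO-labelled table and 21.5 to 22.8 FPKM in the WT tables. The part of these medians in the rank was not tested.

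**Figure D2:**
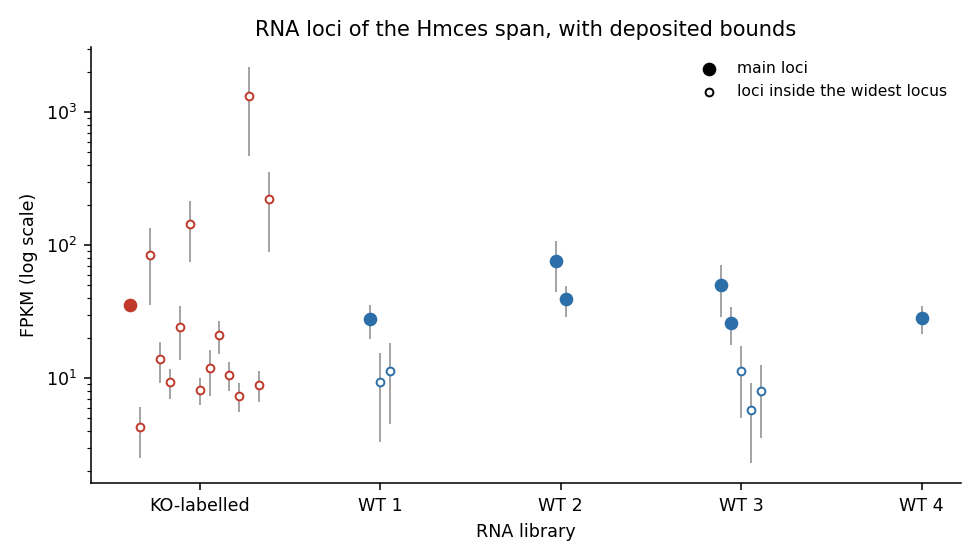
FPKM (log axis) of each RNA locus in the Hmces span by table, KO at the left, ordered by position within a table; bars are the deposited lower and upper bounds. Filled points are main loci and open points are loci inside the widest one. The KO main locus is at 35.3 FPKM and the WT main loci are at 26.0 to 76.5 FPKM, where the upper values are short pieces at the start of the gene. The widest WT loci are at 27.8, 39.2, 26.0 and 28.4 FPKM in libraries 1 to 4, so the KO locus is below library 2 alone. The highest KO points are loci under 150 bases.

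WT library 4 was the WT table in which 1 locus paired with the whole-gene KO locus by at least 80% mutual overlap. Over 1103 loci paired between these 2 tables, 183 (16.6%) were at least 2-fold higher and 187 (17.0%) at least 2-fold lower in the KO-labelled table on the scale of log2(FPKM + 1), 33.5% in all. Hmces was not among them, with a difference of 0.30, or 1.24-fold on the linear scale. The median difference over all paired loci was 0.03, with quartiles of -0.68 and 0.71, and 59.9% of paired loci lay below Hmces. The level of the targeted gene thus stood between the quartiles of all paired loci. Near the gene, 2 other loci within 100 kb were paired. The one from 87791541 to 87801098 had 111 FPKM in the KO-labelled table and 94.6 FPKM in WT library 4, a log2 difference of 0.23. The one from 87954853 to 87964247 had 10.5 FPKM in the KO-labelled table and 20.8 FPKM in WT library 4, a log2 difference of -0.92.

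**Figure D3:**
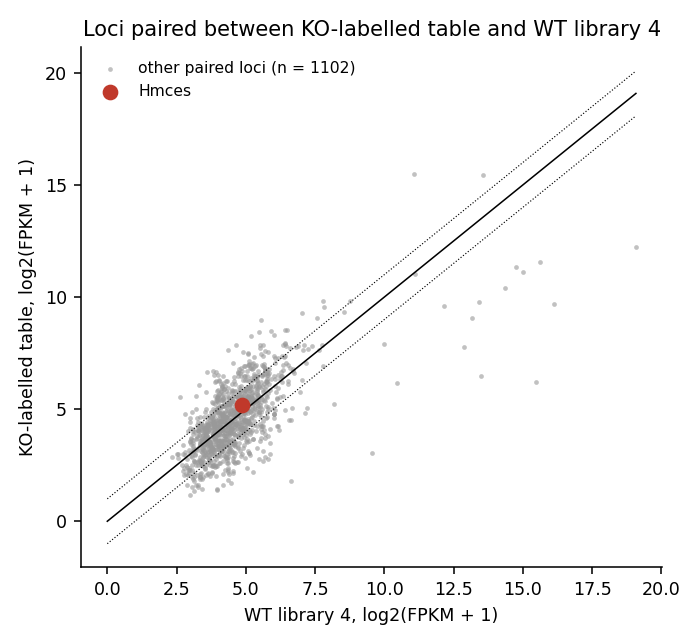
Log2(FPKM + 1) in the KO-labelled table (vertical axis) against WT library 4 (horizontal axis) for 1103 loci paired by at least 80% mutual overlap. The solid line marks equal levels and the dotted lines a 2-fold difference; Hmces, the large point, lies between the dotted lines.

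The KO-labelled table also listed 14 smaller loci inside the whole-gene locus. Of these, 13 lay between the fourth and the fifth read block, an interval of 7427 bases that makes up 35.8% of the bases between blocks. They covered 57.9% of it. The WT tables listed 5 such inner loci, 2 in library 1 and 3 in library 3, and all 5 lay in the same interval. The remaining KO inner locus, from 87865107 to 87865547, had 4.29 FPKM and lay between blocks 1 and 2. RNA between blocks 4 and 5 was therefore listed in tables of both labels, and at the depth of the WT tables the absence of an inner locus cannot be read as absence of RNA.

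The first KO inner locus of the interval between blocks 4 and 5 ran from 87875805 to 87875939 at 84.7 FPKM (35.6 to 134). Its start has the number of the last base of block 4. RNA loci keep their deposited numbering, so whether the locus shares that base was not tested. The 10 KO inner loci of at least 150 bases had 4.29 to 24.2 FPKM with a median of 10.0 FPKM, and the 5 WT inner loci had 5.75 to 11.4 FPKM with a median of 9.42 FPKM. The 4 KO inner loci under 150 bases had 84.7 to 1325 FPKM. The highest, 72 bases from 87881729 to 87881801, had bounds of 469 to 2180 FPKM and about 9.59 implied fragments. In the whole KO-labelled table the 6238 loci under 150 bases had a median of 162 FPKM, and the 89450 loci of 150 to under 700 bases had a median of 4.31 FPKM, so high levels go with short loci over that table. The gene table places the pseudogene Gm19038, of 1412 bases, inside Hmces, between blocks 4 and 5 at the shift of 50000 bases. It was overlapped by 3 inner loci in the KO-labelled table, and by 1 in WT library 1 and 2 in WT library 3. The tables give no strand, so RNA from Hmces and from the pseudogene cannot be told apart there.

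In the IgG DIP library, made from DNA labelled Srap1 KO, Hmces was covered in 6 blocks, which are stretches with at least 15 reads per base. They ran from 87864507 to 87864690, 87867831 to 87867978, 87871518 to 87871645, 87875624 to 87875805, 87883233 to 87883429, and 87886082 to 87886317. Mean coverage in order along the gene was 143, 131, 111, 145, 105 and 95.3 reads per base. The highest block thus had 1.52 times the coverage of the lowest, and the 2 blocks at the far end of the gene had the lowest values. Each block held reads of both strands, with 46.1% to 57.8% forward reads per block and 50.9% (1396 of 2741 reads) over all blocks. The 57.8% was in block 3, where 303 reads had 121 distinct starts and strands. None of the 2741 reads fell under a mapping quality of 30.

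The blocks ended within 1 or 2 bases. At the first base of the blocks coverage was 35 to 62 reads, and at the last base it was 35 to 68 reads. It was at most 4 reads at the second base outside. Of the reads in the blocks, 42 (1.53%) reached past an edge, and 4 (0.146%) by more than 5 bases. Alignments shorter than 49 bases made up 679 reads, and 555 of them (81.7%) began on the first or ended on the last base of a block. The edges were drawn from these same reads, so the last value is a description.

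**Figure D4:**
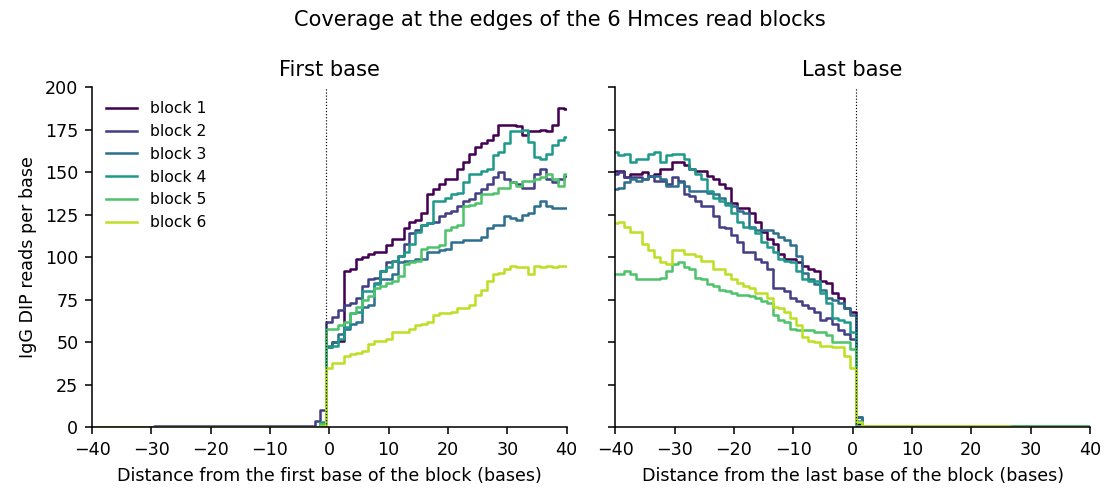
IgG DIP reads per base within 40 bases of the first base (left) and last base (right) of each of the 6 blocks, with the block edge dotted. Coverage is at most 4 reads at the second base outside and 35 to 68 reads at the edge base; block 1 shows a further step inside its first edge.

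Block 1 had a second step at its first edge. Reads began on its first base 45 times and on the base 3 further in 41 times, with 3 and 1 reads beginning on the bases between them. Coverage was 47 reads on the first base and 92 reads 3 bases in. In the other blocks the second most frequent start held 10 to 13 reads, against 34 to 56 on the first base. The last base of block 6, the other outer edge of the set, had 32 reads ending on it.

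Edges as sharp on both sides were listed for the Hmces blocks alone among the blocks of this library. Over 447 blocks in the library, the smaller of a block's 2 edge steps, each taken over 2 bases, was 34 to 51 reads in the 6 Hmces blocks. In the other 441 blocks it was at most 13 reads, with a median of 1. The step is a read count and cannot exceed the coverage of its block. Many of the other blocks never reached a coverage of 34 reads, so for them the outcome was fixed by coverage. A single edge was as sharp in 5 other blocks, whose larger step was 34 to 52 reads, against 35 to 68 reads for the larger step of the Hmces blocks. By mean coverage the Hmces blocks ranked between 5 and 12. The 6 other blocks above the lowest of them lay in 2 places, 5 on chromosome 2 between 98502984 and 98507456 and 1 on chromosome 9 from 35112944 to 35113083. In these blocks, whose coverage would have allowed a larger step, the smaller step was at most 11 reads on chromosome 2 and 2 reads on chromosome 9. The measure of sharpness was chosen after the edges were seen. IgG DIP of WT DNA was not analysed here. Whether WT DNA carries such blocks was therefore not tested.

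**Figure D5:**
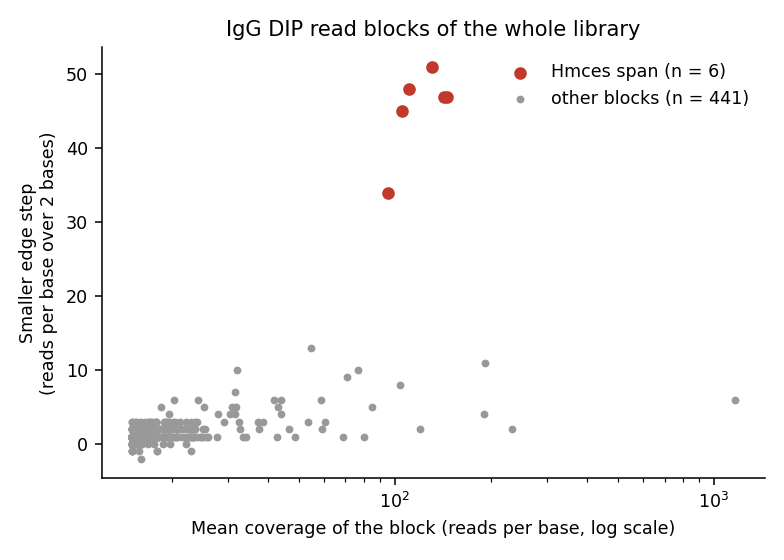
Each point is a read block of the IgG DIP library (coverage of at least 15), with its mean coverage (log axis) and the smaller of its 2 edge steps in reads per base. The 6 Hmces blocks lie at 34 to 51 reads and the other 441 blocks at 13 reads or fewer. A step cannot exceed the coverage of its block, so blocks of low coverage could not reach the Hmces values.

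Where 4 or more blocks, each of 80 to 400 bases, lay within 30 kb of each other, they were compared as a group. Hmces had the highest ratio of read density in the blocks to that between them, at 636. The span was chosen by this coverage, so its place in the ranking describes the choice. The next group was on chromosome 2 between 98503973 and 98507456, at 18.8, and there 96.1% of block reads had a mapping quality under 30. The others were on chromosome Y between 2857877 and 2883591, at 12.5, on the mitochondrial genome between 323 and 15684, at 11.1, and on chromosome 17 between 39980055 and 39985640, at 2.21. In these 4 groups the smaller edge step of a block was at most 10 reads. Reads in blocks narrower than 80 bases counted as reads between the blocks, which lowers a group's ratio. All Hmces blocks were 128 to 236 bases wide, so this did not touch their ratio. In the chromosome 2 group, a block of 67 bases at 98504090 had a mean coverage of 191 reads per base and counted as between. The ratios are therefore not on like terms. On chromosome 8, 4 blocks between 4289603 and 4311775 had mean coverage of 30.4 to 70.9 reads per base and one sharp edge each, with larger steps of 23 to 50 reads and smaller steps of 3 to 13 reads. They miss the group rule because 1 of them is 47 bases wide, and they were named after their values were seen. The blocks from 4311598 to 4311644 and from 4311673 to 4311775 lie close together. Their outer edges had steps of 23 and 50 reads, so read as 1 stretch they would have a sharp edge on both sides.

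The blocks held 2546 reads per kb by middle base, against 4.53 reads per kb in the flanks of 100 kb on either side. The ratio was 563, and 236 with 1 read per start and strand, both as a description of what chose the span. Between the blocks there were 83 reads, or 4.00 per kb (95% exact Poisson interval 3.19 to 4.96, for counting error only), a ratio of 0.885 to the flanks. The ratio was 1.25 when a read counted by 1 shared base, where block reads that cross an edge count too. The 5 intervals between blocks had 9, 17, 15, 28 and 14 reads in order, or 2.87 to 5.28 per kb. None of the 5 was empty.

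The outer ends of the gene carried no block. In the KO-labelled table the RNA locus began 493 bases before block 1 and ended 321 bases after block 6. In WT library 4 these distances were 565 and 297 bases. In WT libraries 2 and 3 the RNA began 532 and 561 bases before block 1 and ended 268 and 302 bases after block 6. RNA therefore reached beyond the blocks on both sides in the KO-labelled table and in WT libraries 2, 3 and 4. The outer ends of the span, 990 bases together, held 4 IgG DIP reads, or 4.04 per kb (1.10 to 10.3). Whether these ends are the untranslated parts of the gene was not tested, for want of exon positions.

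RNA loci were set against the blocks one by one. All 6 blocks lay whole within RNA loci in the KO-labelled table and in WT library 4. WT library 1 covered 4 of them whole and missed blocks 1 and 2. WT library 2 covered 4 whole, with 73.0% of block 2 and 96.1% of block 3, and WT library 3 covered 5 whole and 99.3% of block 2. In WT libraries 2 and 3 the first locus thus ended inside block 2, 40 bases and 1 base before its end.

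The longest stretch of the span under no IgG DIP read of any quality, block reads set aside, ran from 87874254 to 87876326. It was 2073 bases long and enclosed block 4, with 1370 bases before it and 521 after it. Outside the span no reads were set aside. The longest stretch within 500 kb on either side was 1969 bases, and 2653 stretches on chromosome 6 reached 2073 bases or more. These counts are unlike, since any background read over block 4 was set aside with its reads. The next longest stretch of the span, which encloses no block, was 1518 bases, against 1600 bases as the longest within 100 kb on either side. The KO RNA locus from 87875805 to 87875939 lay inside the stretch of 2073 bases and the whole-gene KO locus ran across it. With block reads set aside, 1 kb bins held 0 to 7 reads in the span and 0 to 13 in the flanks, with a median of 4 in both.

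The IgG ChIP list held 1730 windows of the authors, 89 of them on chromosome 6, and 0 in the Hmces span or within 10 kb of it. The nearest lay 3634 kb before the span, from 84228001 to 84230000, and 2991 kb after it, from 90878001 to 90880000. Windows on chromosome 6 were on average 1660 kb apart.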

How the data were processed

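3 kinds of deposited file were used, for the Srap1 KO and WT RNA, the IgG DIP and the IgG ChIP libraries. RNA values are FPKM with bounds, which the authors deposited as Cufflinks tables of loci, per the file headers. The authors' IgG DIP file holds 1 row per aligned read with a mapping quality score, and read positions are printed counted from 1. RNA loci and ChIP windows keep the numbering of their files. Bismark 0.14.5 (DNA), Cufflinks 2.2.1.0 (RNA), MACS2 2.1.1, Bowtie 0.12.8 and Trim Galore 0.3.5 are named per the submitters' processing notes, which list build mm9 for the RNA samples. For DNA samples they list mm9 and mm10; positions of DNA reads are taken as mm9, the build on which the blocks fall in RNA loci. The settings are not given in the sources used here. All libraries had 12 cycles of PCR, per the labels' protocols, and PCR copies are not independent molecules. FPKM is relative to the size of each library, and no further scaling between libraries was applied here to the reported values.

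RNA loci of the KO and each WT table were paired where each was the best match of the other and shared 80% of its bases, kept at 1 FPKM in either table and compared as log2(FPKM + 1), which understates changes of low loci. IgG DIP reads with a mapping quality of at least 30 were counted by their middle base, and block reads by any shared base. Pairing and block finding were tested on simulated data. Tools were Python 3.11.15, NumPy 2.4.6, pandas 2.3.3, SciPy 1.17.1 and matplotlib 3.10.9. Hmces and the span were chosen with earlier results of these data known. Comparisons planned by exon were made by read block, since no exon positions were at hand; RefSeq GRCm38.p6 was used for the promoter, the gene name and neighbours, and the items named were all loci of the span and all like groups of blocks.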

Additional observations from a re-analysis of the deposited data

Results flagged for a closer look

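The Hmces RNA level weighted by shared bases was 46.9 FPKM in WT library 2, far from 26.4, 28.0 and 28.4 FPKM in WT libraries 1, 3 and 4, and it was picked out by Dixon's 95% rule for 4 values. These are 4 tables counted as 1 sample, so the rule was applied among tables treated as technical repeats. Chance picks about 1 in 20 groups, and 4 quantities were examined. The other 3 were not picked out, among them the FPKM of the widest Hmces locus. WT library 2 had the highest piece of the gene, at 76.5 FPKM (44.8 to 108) from 87863974 to 87867938. Its bounds overlapped those of the piece at the same end in WT library 3, at 29.0 to 70.7 FPKM. They lay above those of the whole-gene locus in WT library 4, at 21.6 to 35.1 FPKM. The other piece of WT library 2 had bounds of 29.0 to 49.3 FPKM. These overlapped the bounds of the widest locus in each other WT table. The KO level of 36.3 FPKM lay above the other 3 WT tables and below WT library 2.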

How the results depend on the processing

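Of 35 alternatives over 7 results, 30 stayed within the spread between WT tables or the counting interval of the reported value, and 5 moved it. The log2 difference of Hmces RNA, KO minus WT, was 4.91 with FPKM summed over loci, by construction, since the KO-labelled table lists more and shorter loci. Leaving out each WT table gave 0.11 to 0.38, the highest without library 2. Widest loci, WT library 4 alone, pseudocounts of 0.1 and 5 and median scaling gave 0.16 to 0.30. The share of paired loci at least 2-fold apart was 36.8% at a mutual overlap of 90%, over 590 loci, with 129 higher and 88 lower in KO, and the cause was not tested. At 50% overlap, 416 loci were higher and 622 lower in KO, against 183 and 187 at 80%, so the split of directions depends on the overlap. The density ratio of the blocks to the flanks was 499 with reads of every mapping quality, which adds flank reads alone, and 236 with 1 read per start and strand. When a read counted by 1 shared base, the ratio between the blocks went above 1, to 1.25 (1.02 to 1.51), against 0.885, and at the outer ends to 1.79 (0.769 to 3.53), against 0.893, where block reads that cross an edge count too. The alternatives by read block were chosen after seeing the data. Those on coding, untranslated and annotated exon edges were not run, for want of exon positions. Bases in blocks were 1056 to 1078 at coverage limits of 5 and 50. No paired analysis was possible because the KO tables are 1 sample and carry no number shared with the WT tables by design. Depth limits the WT tables, where 69.3 to 101 implied fragments stood behind the gene.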
